A study of Mus musculus with 9 samples.

Results

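The genes described here are 40 regulators and effectors of the cell cycle, from the D cyclins that open G1 to the kinases and motors of mitosis, whose messages were counted by RNA sequencing in corona radiata cells of the mouse. They were taken by gene symbol from a table of 54838 genes, and all 40 were found. Corona radiata cells are the innermost cumulus granulosa cells, which stay attached to the oocyte at ovulation. The material came from adult mice after ovarian stimulation with PMSG, which drives follicle growth, and hCG, which triggers ovulation, and the unexplained term "J4" stands beside this treatment in the labels. There were 9 libraries, 3 for each of 3 genotypes: wild type (WT), mice lacking both liver X receptors (LXR DKO, a double knockout), and that double knockout carrying the transgene TG-AMH-LXRb (genotype DKO LXR TG-AMH-LXRb in the labels, transgenic below). The transgenic animals therefore share the double knockout with the LXR DKO animals. Neither the deleted parts of the receptor genes nor the promoter of the transgene is described. No label says which libraries are separate animals, and the p-values below speak to the spread of these libraries alone, which may be technical.

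A dividing cell passes through G1, replicates its DNA in S phase, and divides in M phase. Cyclins D and E with Cdk4, Cdk6 and Cdk2 start S phase, the Mcm helicase licenses replication origins, and cyclin B with Cdk1 drives entry into mitosis. The anaphase-promoting complex (APC/C) with its activator Cdc20 then destroys cyclin B, and the spindle checkpoint holds this step back until the chromosomes are attached. The promoters of G2 and mitosis genes commonly carry CCAAT boxes, bound by NF-Y, and the cell cycle genes homology region (CHR), bound by the DREAM and MuvB complexes. Cumulus cells largely stop dividing around ovulation. The oocyte they enclose resumes meiosis with the same cyclin B and Cdk1 machinery and stores its messages for later use, so that a library of cumulus cells that takes up oocyte RNA takes up cell cycle messages of another cell.

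Oocyte messages were present in this material. The libraries WT 1 and LXR DKO 1 held high levels of oocyte messages: Gdf9, an oocyte growth factor, measured 126 and 136 RPKM there (reads per kilobase, scaled to library size), and H1foo, the oocyte linker histone, 256 and 235 RPKM. Summed over 20 oocyte markers, the level was 1242, 21.5 and 24.7 RPKM in WT 1 to 3, 840, 35.1 and 18.3 RPKM for the double knockout, and 41.5, 122 and 70.3 RPKM for the transgenic animals. WT 1 and LXR DKO 1 thus stand far above the rest, and the transgenic libraries lie above WT 2 and WT 3. The marker Figla was listed at 0 in 6 of the other 7 libraries, all but transgenic 3. Of 19 granulosa and cumulus markers, 16 to 19 were at 1 RPKM or more in each library, and the most abundant by its mean, the inhibin gene Inha, measured 274 to 307 RPKM in WT and 150 to 271 RPKM in the other genotypes, so the labelled cell type was present throughout. The targeted genes followed the labels: Nr1h2, the gene of LXR beta, measured 39.7 to 45.7 RPKM in WT, 2.85 to 3.57 in LXR DKO and 4.83 to 6.7 in transgenic libraries, the last lying above every LXR DKO library. Nr1h3, the gene of LXR alpha, measured 3.5 to 5.72, 0.713 to 1.08 and 0.395 to 0.819 RPKM in the same order. Reads in genes, worked back from the RPKM values, numbered from 29822412 in transgenic 2 to 44049966 in transgenic 1. In these bulk samples fewer cells of a type and less RNA per cell cannot be told apart.

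A promoter window was at hand for 19 members that were highest in WT 1 and LXR DKO 1. Of these, 12 hold a CCAAT box together with a CHR (63.2%), against 5.85% of tested genes. Most of the 19 are G2 and mitosis genes, whose promoters commonly carry these words, so the share is a description. Promoter stretches are shown for members on which the results below turn. Each runs 5′ to 3′ on the gene's strand from 120 bases before the annotated start to 30 bases after it (RefSeq, GRCm38.p6), with every CCAAT box and CHR on either strand in capitals. The first 3 lines hold both words, Ccnb1 holds CCAAT boxes only, and Cdk4, the most abundant member, holds neither.
Ccnb2, chr9:70421525-70421674, minus strand: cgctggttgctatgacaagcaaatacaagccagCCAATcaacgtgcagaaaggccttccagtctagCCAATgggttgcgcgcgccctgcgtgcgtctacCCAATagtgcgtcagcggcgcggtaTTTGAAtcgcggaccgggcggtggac
Cdk1, chr10:69352883-69353032, minus strand: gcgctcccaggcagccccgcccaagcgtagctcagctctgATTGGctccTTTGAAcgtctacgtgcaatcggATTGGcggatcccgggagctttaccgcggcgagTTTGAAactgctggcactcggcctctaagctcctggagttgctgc
Cdc20, chr4:118437314-118437463, minus strand: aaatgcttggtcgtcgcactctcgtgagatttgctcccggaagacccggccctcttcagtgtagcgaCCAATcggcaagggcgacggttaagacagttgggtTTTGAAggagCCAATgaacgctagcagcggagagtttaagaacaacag
Ccnb1, chr13:100786457-100786606, minus strand: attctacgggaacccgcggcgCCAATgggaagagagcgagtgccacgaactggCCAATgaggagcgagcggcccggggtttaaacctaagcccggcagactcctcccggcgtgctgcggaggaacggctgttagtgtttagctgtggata
Cdk4, chr10:127063415-127063564, plus strand: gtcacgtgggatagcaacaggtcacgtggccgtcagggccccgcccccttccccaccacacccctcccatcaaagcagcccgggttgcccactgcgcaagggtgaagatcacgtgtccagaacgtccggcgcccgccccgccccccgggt

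In WT 1 and LXR DKO 1, the genes of G2 and mitosis were higher than in any other library, while G1 genes were not. WT 1 and LXR DKO 1 were the 2 highest of the 9 libraries for 24 of the 39 members that passed the filter (1 RPKM or more in at least 3 libraries), or 61.5%, against 6.97% of all 16422 genes that passed. By role, these were 5 of 5 G2 and mitosis cyclins with Cdk1 and its activator, 4 of 4 mitotic kinases and APC/C activator, 6 of 6 spindle checkpoint and kinetochore genes, and 4 of 4 spindle motor and chromosome structure genes. The count was 3 of 7 for replication licensing, 1 of 2 for nucleotide synthesis, 1 of 4 for S phase entry, 0 of 5 for G1 cyclins and their kinases, and 0 of 2 for the CDK inhibitors that passed. The median level was 1.37-fold that of the higher other library of the genotype in WT 1 and 1.53-fold in LXR DKO 1, against 0.911 and 0.953 over all genes that passed. These counts describe 2 single libraries and carry no test. How far the oocyte RNA accounts for them was not tested.

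**Figure D1:**
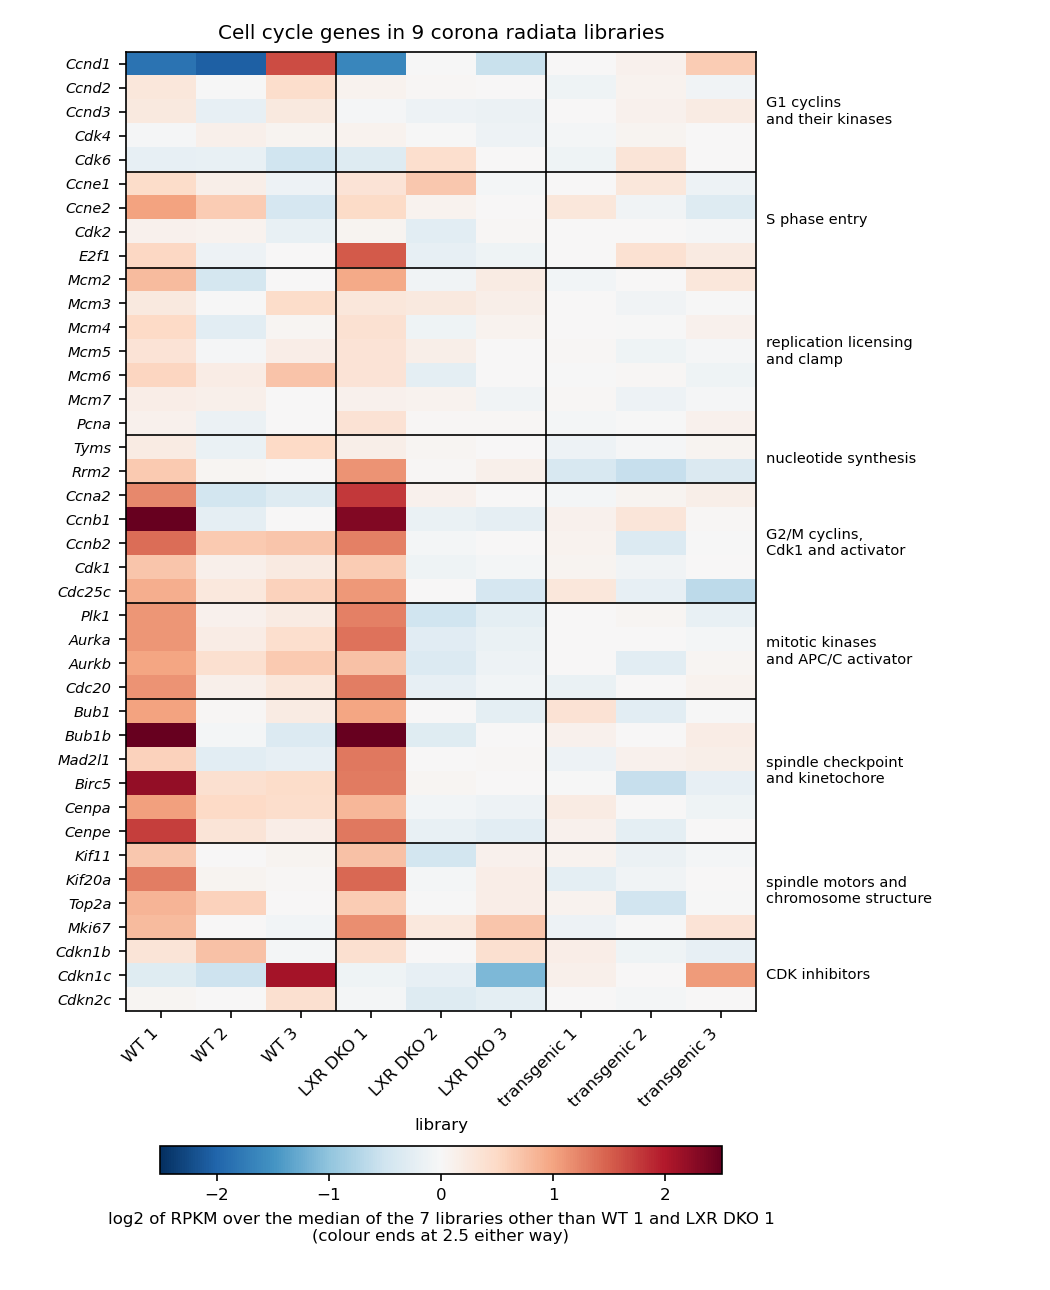
Heat map of the 40 cell cycle genes (rows, grouped by role) in the 9 libraries (columns); colour gives log2 of the RPKM over the median of the 7 libraries other than WT 1 and LXR DKO 1. The columns of WT 1 and LXR DKO 1 are red through the 4 G2 and mitosis groups and pale in most of the G1 group, and Ccnd1 follows another order.

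The cyclin Ccnb1 (ENSMUSG00000041431, mm10 chromosome 13, 100778650 to 100786570, minus strand), the B cyclin that activates Cdk1 in both mitosis and meiosis, measured 16 RPKM in WT 1, 2.28 in WT 2 and 2.67 in WT 3. The LXR DKO libraries held 13.2, 2.37 and 2.28 RPKM in the same order, and the transgenic libraries 2.89, 3.29 and 2.73. Both libraries with high oocyte RNA thus stood 5.99-fold and 5.58-fold above the next library of their genotype, and the other 7 lay within a narrow range. The processed pseudogene Ccnb1-ps followed the same order at higher RPKM, from 30.7 in WT 1 and 26.7 in LXR DKO 1 to 4.13 to 6.02 in the others. How the reads of near-identical sequences were shared between gene and pseudogene was not given, so the level of Ccnb1 itself is uncertain.

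Bub1b (ENSMUSG00000040084, chromosome 2, 118598211 to 118641591, plus strand), which encodes the spindle checkpoint kinase BubR1, measured 27.1, 4.52 and 3.7 RPKM in the WT libraries. The LXR DKO libraries held 28.7, 3.8 and 4.7 RPKM and the transgenic ones 5.03, 4.67 and 5.3. WT 1 stood 5.99-fold and LXR DKO 1 6.11-fold above the next library of its genotype. Among the remaining 7, transgenic values lay above WT 2 and WT 3 and overlapped those of LXR DKO 2 and 3. In reads these were 5095 and 5145 against 543 to 996 in the other libraries, so counting error is small beside the gap.

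For the remaining G2 genes the ratios of WT 1 and LXR DKO 1 to the next library of their genotype were smaller, 1.26 to 3.17. Ccna2, the A cyclin of S phase and G2, measured 6, 1.89 and 2.07 RPKM in the WT libraries, 8.85, 2.79 and 2.61 in the double knockout, and 2.51, 2.72 and 2.87 with the transgene. Ccnb2, the second B cyclin, measured 20.7, 12.3 and 12.6 RPKM in the WT libraries, 18.8, 7.55 and 7.84 in the double knockout, and 8.32, 6.16 and 7.84 with the transgene. Unlike Ccnb1, it also separated WT 2 and WT 3 from the 5 other low-oocyte libraries. Cdk1, the mitotic kinase itself, measured 7.1, 4.82 and 5.15 RPKM in the WT libraries, 6.78, 4.09 and 4.25 in the double knockout, and 4.6, 4.13 and 4.38 with the transgene. Cdc25c, a phosphatase that activates Cdk1, measured 0.547 to 1.83 RPKM, with the lowest mean of the members over the 7 libraries other than WT 1 and LXR DKO 1 (0.881 RPKM, next to 1.11 for Cdkn1c).

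Among the mitotic kinases, Plk1, which promotes mitotic entry and spindle assembly, measured 8.53, 4.26 and 4.55 RPKM in the WT libraries, 9.42, 2.79 and 3.33 in the double knockout, and 3.96, 4.08 and 3.46 with the transgene. Aurka, the spindle pole kinase, measured 9.78, 5.18 and 6.09 RPKM in the WT libraries, 11.7, 3.74 and 4.1 in the double knockout, and 4.6, 4.58 and 4.45 with the transgene. Cdc20 measured 18.7, 9.31 and 10.4 RPKM in the WT libraries, 20.7, 7.41 and 8.18 in the double knockout, and 7.63, 8.58 and 9.14 with the transgene. In these 3 genes LXR DKO 1 was the highest library and WT 1 came next. Aurkb, the kinase of the chromosomal passenger complex, had the reverse order, with 3.92, 2.59 and 3.1 RPKM in the WT libraries, 3.28, 1.56 and 1.81 in the double knockout, and 1.98, 1.64 and 2.05 with the transgene.

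Spindle and kinetochore genes shared the pattern at different sizes. Birc5, which encodes survivin of the chromosomal passenger complex, measured 6.77, 1.95 and 2.04 RPKM in the WT libraries, 3.64, 1.53 and 1.48 in the double knockout, and 1.48, 0.993 and 1.28 with the transgene. Its lowest value, in transgenic 2, rests on 105 reads, the fewest of any tested member whose reads could be worked back. Cenpe, a kinetochore motor, was 2.66-fold higher in WT 1 and 2.83-fold in LXR DKO 1, and Kif20a, a motor needed for cytokinesis, 2.31-fold and 2.43-fold. Together with Ccnb1, Bub1b, Ccna2 and Birc5 these were the 6 of 39 members at least 2-fold above the rest of their genotype in both libraries, or 15.4%, against 1.08% of all genes that passed the filter. Just below that line were Plk1 (1.87-fold in WT 1, 2.83-fold in LXR DKO 1) and Cdc20 (1.79-fold and 2.53-fold), and just above it was Kif20a. Bub1, Mad2l1 and Cenpa, which act at the kinetochore, and Kif11, Top2a and Mki67, the proliferation marker, had smaller ratios, the lower of each pair being 1.22 to 1.74. Bub1 measured 3.1 and 3.06 RPKM in WT 1 and LXR DKO 1 against 1.29 to 1.98 in the other 7 libraries, Mad2l1 3.64 and 6.12 against 2.04 to 2.72, and Cenpa 6.69 and 5.85 against 3.02 to 4.63. Kif11, the bipolar spindle motor, measured 3.62 and 3.74 against 1.64 to 2.45, Top2a, the topoisomerase that untangles chromosomes, 5.64 and 4.87 against 2.23 to 4.65, and Mki67 2.37 and 3.06 against 1.25 to 2.22. Top2a and Mki67 thus came close to overlapping the other libraries.

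The genes of S phase shared this in part, and those of G1 did not. The lower of each pair of ratios was 1.67 for Mcm2, 1.53 for Rrm2 and 1.41 for E2f1, against 1.22 for Top2a. WT 1 and LXR DKO 1 were each the highest of their genotype for 3 of 4 S phase entry genes (75%). For replication licensing this held for 5 of 7 (71.4%), against 16.4% of all genes that passed. E2f1, the transcription factor that turns on S phase genes, was highest in LXR DKO 1, at 10.5 RPKM, against 5.16 in WT 1 and 3.15 to 4.73 in the other 7 libraries. Of the Mcm helicase genes, Mcm2 measured 6.01 and 6.68 RPKM in WT 1 and LXR DKO 1 and 2.57 to 4.22 elsewhere, whereas Mcm7 spanned only 9.37 to 11.4 RPKM over all 9 libraries. Rrm2, the ribonucleotide reductase subunit, measured 5.85, 3.82 and 3.7 RPKM in the WT libraries, 8, 3.8 and 4.05 in the double knockout, and 2.8, 2.48 and 2.86 with the transgene, every transgenic value lying below every other. Its log2 fold change in transgenic minus LXR DKO was -0.70 ± 0.24 and did not pass the test described below (limma, adjusted p = 0.499). Without LXR DKO 1 it was -0.41 ± 0.17 (adjusted p = 0.695). With both WT 1 and LXR DKO 1 left out it was -0.406 ± 0.105 and did not pass either (limma, adjusted p = 0.312). Tyms, thymidylate synthase, spanned 2.71 to 4.33 RPKM with its highest value in WT 3. Cdk2, the partner of cyclin E, spanned 7.01 to 8.96 RPKM. Mcm3 (5.45 to 7.99 RPKM), Mcm4 (7.02 to 12), Mcm5 (3.83 to 5.23), Mcm6 (7.88 to 15.5) and the replication clamp Pcna (7.59 to 10.8) varied by less than Ccnb1 or Bub1b, and so did the E cyclins Ccne1 (1.33 to 2.31) and Ccne2 (0.991 to 2.68). The D cyclins Ccnd2 (3.46 to 5.1 RPKM) and Ccnd3 (8.2 to 11.3) and the kinase Cdk6 (1.69 to 3.2) completed the G1 genes.

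Cdk4, the kinase partner of the D cyclins, was by far the most abundant member, and the steadiest over all 9 libraries. It measured 91.2, 102 and 96.9 RPKM in the WT libraries, 98.3, 92.4 and 85 in the double knockout, and 89.1, 97 and 92.6 with the transgene, a coefficient of variation of 5.47%. Over the 7 libraries other than WT 1 and LXR DKO 1 it was 5.91%, next to 5.45% for Pcna. Next in the mean of those 7 libraries came Mcm7 (10.2 RPKM), Mcm6 (10.1), Ccnd3 (9.63), Ccnb2 (8.94) and Cdc20 (8.67), whose ranges over those libraries overlap. The proliferation marker Mki67 was low, with a mean of 1.55 RPKM over the same 7. Over all tested members the median coefficient of variation was 33% with 9 libraries and 15.6% with those 7, against 17% and 16.4% for all genes that passed the filter.

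**Figure D2:**
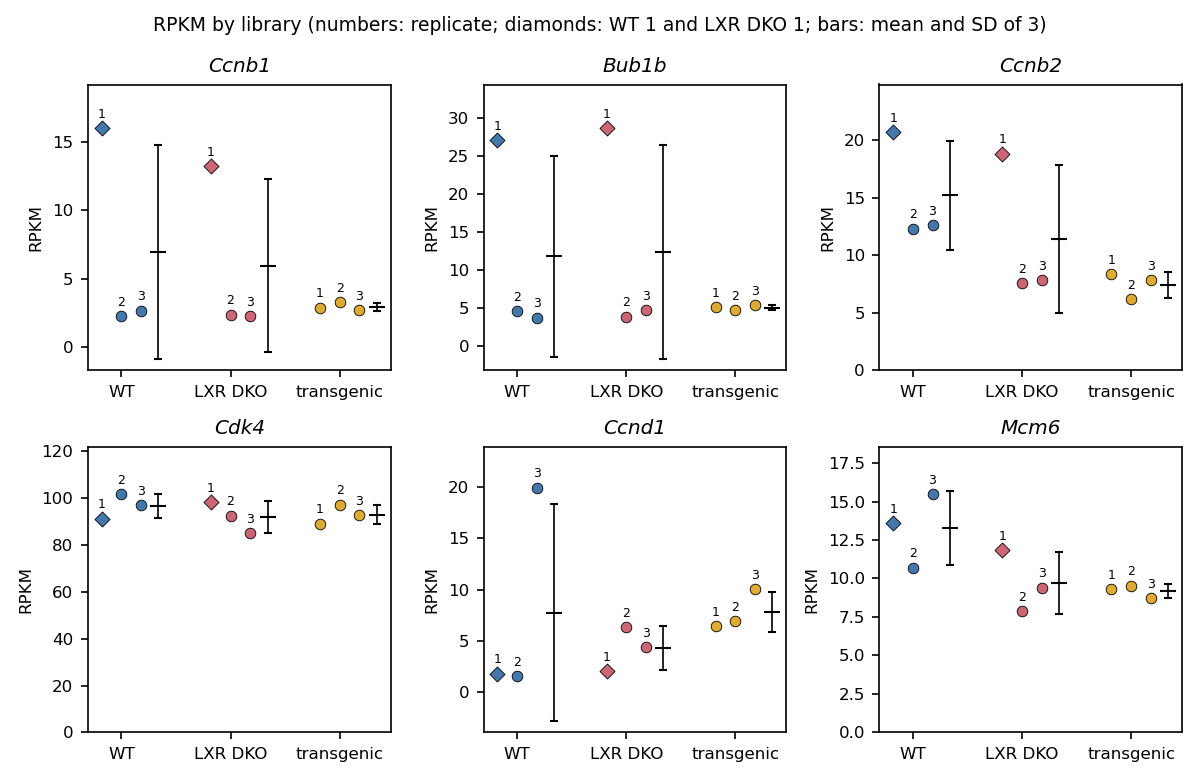
RPKM of 6 cell cycle genes by genotype, 1 point per library labelled by its replicate number, with the mean and SD of the 3 libraries; diamonds mark WT 1 and LXR DKO 1. Ccnb1 and Bub1b are high only in the diamonds, Ccnb2 is also higher in WT 2 and WT 3 than in the 5 other circles, Cdk4 lies between 85 and 102 RPKM throughout, and Ccnd1 is highest in WT 3.

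Ccnd1 (ENSMUSG00000070348, chromosome 7, 144929931 to 144939925, minus strand), the D cyclin induced by growth signals, went its own way. It measured 1.79, 1.57 and 19.9 RPKM in the WT libraries, 2.08, 6.36 and 4.38 in the double knockout, and 6.43, 6.92 and 10 with the transgene, so WT 3 was the highest library and WT 2 the lowest. The order resembles in part that of epithelial markers of the oviduct. Of these, 12 summed to 453, 405 and 2221 RPKM in the WT libraries, 612, 1163 and 868 in the double knockout, and 1932, 2559 and 2541 with the transgene. Unlike Ccnd1, this sum was higher in transgenic 2 and transgenic 3 than in WT 3. Erythroid markers (9 genes) summed to 9881 RPKM in WT 3 and to at most 972 RPKM in any other library. Smooth muscle markers (6 genes) summed to 10.1, 8.33 and 93.5 RPKM in the WT libraries, 11.2, 87.6 and 8.94 in the double knockout, and 78.7, 58 and 25.7 with the transgene. None of the 12 oviduct markers was listed at 0 in any library. The part of other cell types in the Ccnd1 values was not tested. Cdkn1c, the CDK inhibitor p57 and the member that did not pass the filter, was also highest in WT 3, at 3.15 RPKM, followed by 1.55 in transgenic 3 and at most 0.815 in the other 7. The related inhibitors Cdkn1b (3.96 to 7.59 RPKM) and Cdkn2c (4.47 to 7.38 RPKM) varied less.

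Ccnd3, Pcna and Tyms also have pseudogene copies with values above their own in each library: Ccnd3-ps measured 13 to 20.2 RPKM, Pcna-ps2 19 to 27.6 and Tyms-ps 4.66 to 8.81, so these 3 genes are uncertain in the same way. Exon bases are shared with a gene on the opposite strand by several members, and the strand setting of the counting was not given. Kif20a shares 29.3% with Cdc23, Ccnd1 23.4% with LTO1, Cdk4 19.7% with Tspan31, Ccne2 17.4% with Ints8, Cdc25c 12.7% with Gm3550 and Ccna2 12.5% with Exosc9. Cdkn1c shares 30.7% with Gm44732, which was listed at 0 in all 9 libraries. Of these partners Cdc23, at 8.64 to 11.8 RPKM, lay above Kif20a in all 9 libraries, and Ints8, at 7.1 to 10.3 RPKM, lay above Ccne2 in all 9.

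The oocyte RNA of the 2 libraries was not of 1 make-up. Messages of the egg coat were high in WT 1 and low in LXR DKO 1: Zp3, the sperm-binding coat protein, measured 108 and 2.9 RPKM, Zp2 60.2 and 1.22, and Zp1 41.4 and 2.29. Padi6 (137 and 14 RPKM) and Nlrp5 (31.2 and 2.04 RPKM), proteins of the egg cortex, and Khdc3 (8.44 and 0.0814 RPKM) were likewise lower in LXR DKO 1. Gdf9 and H1foo, given above, were nearly equal, and the meiotic regulators Btg4 (40.9 and 67.8 RPKM) and Wee2 (11.2 and 19.3 RPKM) were higher in LXR DKO 1. Over the 20 oocyte markers the ratio of WT 1 to LXR DKO 1 ran from 0.504 to 104. The ratios of the cell cycle members ran from 0.494 for E2f1 to 1.86 for Birc5, with Ccnb1 at 1.21, Bub1b at 0.943, Ccna2 at 0.678 and Mad2l1 at 0.595. These ratios take the whole RPKM, and the members also had RPKM in the other 7 libraries. Most oocyte markers lay under 1 RPKM there, so the widths of the 2 ranges cannot be compared.

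**Figure D3:**
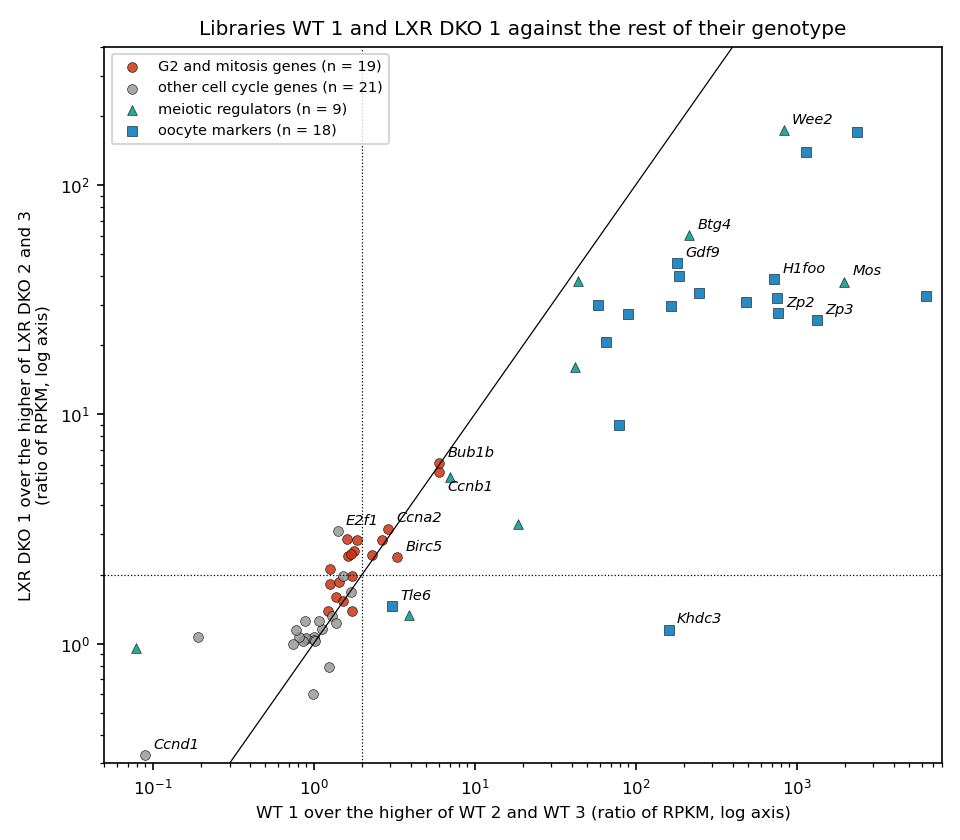
Ratio of the RPKM in WT 1 to the higher of WT 2 and WT 3 (x, log axis) against that in LXR DKO 1 to the higher of LXR DKO 2 and 3 (y, log axis), 1 point per gene; dotted lines mark 2-fold and the solid line equal ratios, and 2 oocyte markers listed at 0 in the libraries compared are not drawn. The G2 and mitosis genes lie near the line of equal ratios up to Ccnb1 and Bub1b, while most oocyte markers lie to the right of it, with Khdc3 at 160 against 1.15. The place of a gene also depends on the libraries divided by. LXR DKO 2 held 7 of 20 oocyte markers at 1 RPKM or more, against 1 each in WT 2 and WT 3.

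Transgenic 2 had the next highest oocyte sum, 122 RPKM with H1foo at 26.1 RPKM, far below the sums of 1242 and 840 in WT 1 and LXR DKO 1. It had the highest Ccnb1 value of the 7 remaining libraries, 3.29 RPKM, but its Bub1b value of 4.67 RPKM lay below those of transgenic 1 and transgenic 3. Its Ccnb2 (6.16 RPKM), Birc5 (0.993 RPKM) and Top2a (2.23 RPKM) values were the lowest of all 9 libraries. How far oocyte RNA entered these values was not tested.

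Other cell cycle genes outside the 40 were examined by list. WT 1 and LXR DKO 1 were the 2 highest libraries for 19 of 27 tested mitotic genes (70.4%), 9 of 18 replication genes (50%), 4 of 12 E2F, pocket protein and G2/M transcription factor genes (33.3%), 3 of 14 further CDK regulators (21.4%) and 1 of 18 granulosa markers (5.56%). Uhrf1, which couples DNA methylation to replication, measured 16.4 and 14.9 RPKM in WT 1 and LXR DKO 1 and 1.53 to 3.24 RPKM in the other libraries. Kif23, a motor of the central spindle, measured 6.75 and 7.62 RPKM against 0.84 to 1.29, and the checkpoint kinase Chek1 9.93 and 9.17 against 1.55 to 2.88. Slbp, which binds the histone message stem loop, measured 25 and 24.5 RPKM against 7.48 to 11. The transcription factor E2f5, at 35.9 and 31.1 RPKM against 8.31 to 12.3, stood higher than E2f1, and Foxm1, the activator of G2 genes, measured 3.09 and 2.54 RPKM against 0.699 to 1.52. Of 9 meiotic regulators 7 were at least 2-fold higher in both libraries. Mos, the kinase that holds the egg in meiosis II, measured 36.7 and 10.2 RPKM and at most 0.289 RPKM elsewhere, and Fbxo43, the APC/C inhibitor of that arrest, 5.07 and 7.13 RPKM and at most 1.05.

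The promoters of these members were searched for 3 kinds of word in the window from 250 bases before to 50 after the start, on both strands: CHR, spelled TTTGAA or, in a second form, TTCGAA, then the CCAAT box, and E2F sites. The E2F site was searched as TTTCGCG, in a second spelling as TTTGGCG, and finally as TTTCCCG. None of these words contains another. RefSeq gave a window for 31 of the 40 members. Where a gene had more than 1 window, as 3 of these members did, only the first listed was searched. CHR and CCAAT occurred together in 12 of the 19 members with WT 1 and LXR DKO 1 highest (63.2%) and in 1 of the 12 other members (8.33%, Mcm7). The share was 5.85% of 9587 tested genes with a window and 7.7% of all 27025 genes with a window. CHR, with or without CCAAT, was found in 63.2%, 8.33%, 13.6% and 19.4% of these sets, and CCAAT in 84.2%, 50%, 38.9% and 37.9%. E2F words had a smaller share in the 19 (3 genes, 15.8%) than in the 12 (4 genes, 33.3%). Both shares lay above the 9.9% of tested genes and 5.72% of all genes with a window. The 19 were formed from their values, so these shares are a description, and a match is not evidence of binding. At the other end of the message, the cytoplasmic polyadenylation words TTTTAT or TTTTAAT, on the gene's strand, lay in the last 100 transcript bases of 8 of 24 members with WT 1 and LXR DKO 1 highest (33.3%) and 4 of 16 others (25%), against 19.1% of tested genes and 3 of the 20 oocyte markers (15%).

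The genotypes were compared over all 9 libraries to ask whether loss of the receptors, or the transgene on top of it, went with a change of cell cycle genes. With limma on log2(RPKM + 1) and Benjamini-Hochberg adjustment over 16422 genes, 0 of 39 members passed an adjusted p of 0.05 in LXR DKO minus WT (background 10.6% of all genes tested), 0 in transgenic minus LXR DKO (background 0.116%) and 0 in transgenic minus WT (background 11.9%). At an unadjusted p under 0.05 there were 2, 1 and 6 members, all lower in the first-named genotype, against 26.5%, 8.1% and 30.4% of all genes, and limma-voom on the reads worked back passed 0, 0 and 0. The median log2 fold change of the members was -0.09, -0.17 and -0.23 in this order, and that of all genes 0.02, 0.01 and 0.01. With WT 1 and LXR DKO 1 left out, the counts at an unadjusted p under 0.05 (limma) were 9, 1 and 8 members. These were 23.1%, 2.56% and 20.5% of the members, against 25.9%, 7.69% and 27.5% of all genes. Of them, 8, 1 and 7 were lower in the first-named genotype. The 2 comparisons with WT share its libraries, as the 2 with LXR DKO share theirs.

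The SE of several members was larger with WT 1 and LXR DKO 1 in the fit than without them. Ccnb1 averaged 6.99 ± 7.81 RPKM in WT, 5.97 ± 6.3 in LXR DKO and 2.97 ± 0.289 in transgenic libraries (SD, n = 3), and its log2 fold change in transgenic minus WT was -0.57 ± 0.71 (SE; limma, adjusted p = 0.614). Without WT 1 and LXR DKO 1 it was 0.19 ± 0.12 (adjusted p = 0.338), with the sign turned. Bub1b likewise went from -0.58 ± 0.80 (adjusted p = 0.653) to 0.23 ± 0.13 (adjusted p = 0.282). Of all 39 members, 26 had a negative value in LXR DKO minus WT (66.7%, against 47.5% of all genes) and 33 in transgenic minus LXR DKO (84.6%, against 46.7%). Without those libraries the first count was 27 of 39 (69.2%, against 50%), and its median went from -0.09 to -0.13. The second count was 16 of 39 (41%, against 41.4%), and its median went from -0.17 to 0.02. In transgenic minus WT the count went from 34 of 39 (87.2%, against 48%) to 25 (64.1%, against 46.6%).

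**Figure D4:**
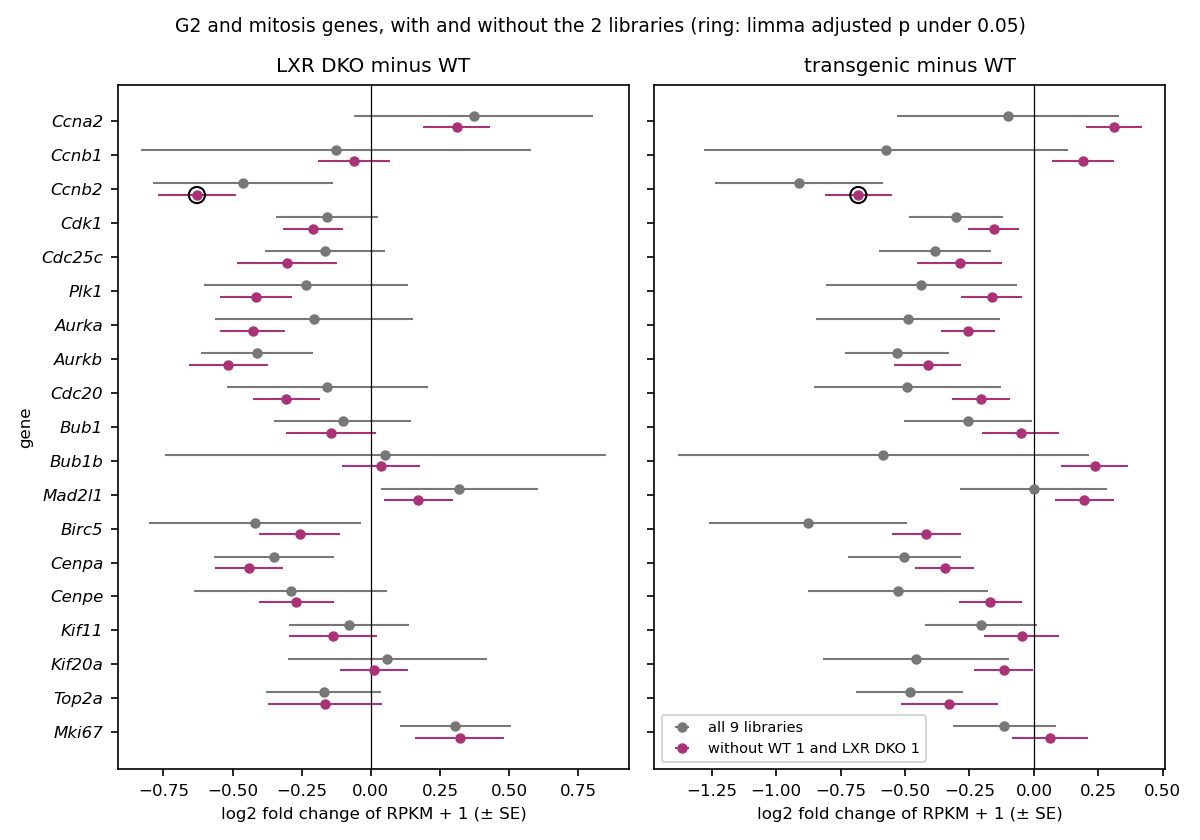
Log2 fold change of RPKM + 1 (x, ± SE from limma) for the 19 G2 and mitosis genes (rows) in LXR DKO minus WT and transgenic minus WT, with all 9 libraries in grey and without WT 1 and LXR DKO 1 in purple. The purple bars are shorter, and only Ccnb2, ringed, passes an adjusted p of 0.05, at -0.63 and -0.68.

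Without WT 1 and LXR DKO 1, Ccnb2 (ENSMUSG00000032218, chromosome 9, 70407692 to 70421547, minus strand) was lower in LXR DKO and in transgenic libraries than in WT. Its values of 12.3 and 12.6 RPKM in WT 2 and WT 3 lay above 7.55 and 7.84 in LXR DKO 2 and 3 and above all 3 transgenic libraries. The log2 fold change was -0.63 ± 0.14 in LXR DKO minus WT (limma, adjusted p = 0.0477) and -0.68 ± 0.13 in transgenic minus WT (adjusted p = 0.0304), and -0.05 ± 0.13 in transgenic minus LXR DKO (adjusted p = 0.949). It was the 1 member of 39 called in each comparison with WT, where 6.97% and 7.6% of all genes were called, and 0 were called in transgenic minus LXR DKO (background 0.122%). The members' share is below the background in both comparisons with WT, but 1 call in each is too few for a result about the members. With all 9 libraries the Ccnb2 values were -0.46 ± 0.33 (adjusted p = 0.413) and -0.91 ± 0.33 (adjusted p = 0.102), and over all alternatives the adjusted p ran from 0.0461 to 0.742 and from 0.0266 to 0.254. The sums of granulosa and cumulus markers (19 genes) differed in the same direction, at 1615 to 1883 RPKM in WT and 842 to 1105 RPKM in the other genotypes. Not every marker did so. Without WT 1 and LXR DKO 1, 4 of 18 tested had positive values in LXR DKO minus WT and 6 in transgenic minus WT. The part of these markers in the Ccnb2 difference was not tested.

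Several other members had the same order without passing the test. WT 2 and WT 3 lay above all 5 other low-oocyte libraries for 10 of 39 members, namely Mcm6, Ccnb2, Cdk1, Plk1, Aurka, Aurkb, Cdc20, Birc5, Cenpa and Cenpe, against 18.1% of all genes tested. They lay below all 5 for 3 members, Cdk6, Ccna2 and Mad2l1, against 15.5% of all genes tested. Over all 16422 genes tested these orders held for 2977 and 2550. Both are thus frequent in these libraries, and the counts are no result about the cell cycle genes. Aurkb measured 2.59 and 3.1 RPKM in WT 2 and WT 3 against 1.56 to 2.05 in the other 5, a log2 fold change of -0.52 ± 0.14 in LXR DKO minus WT (limma, adjusted p = 0.079). Cenpa, the centromere histone, measured 4.63 and 4.47 against 3.02 to 3.8 RPKM, or -0.44 ± 0.12 (adjusted p = 0.083). Aurka gave -0.43 ± 0.12 (adjusted p = 0.076), and Mcm6, at 10.7 and 15.5 against 7.88 to 9.54 RPKM, -0.53 ± 0.17 (adjusted p = 0.114). Ccna2 differed the other way, with 1.89 and 2.07 RPKM against 2.51 to 2.87, or 0.31 ± 0.12 (adjusted p = 0.165).

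Single libraries decided some calls. Without LXR DKO 1 alone, Ccnb2 and Aurkb passed in both comparisons with WT, Ccnb2 at -0.86 and -0.91 and Aurkb at -0.64 and -0.53. That fit keeps WT 1, the other library with high oocyte RNA. Without WT 1 alone the values were smaller and did not pass, Ccnb2 at -0.23 (limma, adjusted p = 0.734) and -0.68 (adjusted p = 0.254) and Aurkb at -0.29 (adjusted p = 0.466) and -0.41 (adjusted p = 0.283). Ccnb2 in LXR DKO minus WT was -0.25 without LXR DKO 2 and -0.28 without LXR DKO 3, neither past the threshold. Without WT 3, the library highest in Ccnd1 and in the globin message Hbb-bs (2663 RPKM, against at most 320 elsewhere), Ccnd1 was higher in transgenic than in WT libraries by 1.69 ± 0.33 (limma, adjusted p = 0.00906), and Top2a and Ccne2 were lower, with values of -0.67 ± 0.19 (adjusted p = 0.0353) and -0.55 ± 0.16 (adjusted p = 0.0431). With all 9 libraries Ccnd1 gave 0.70 ± 0.73 (adjusted p = 0.545).

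On the 5 further cell cycle and meiotic lists 76 genes were tested with all 9 libraries. Of these, 1 was called in LXR DKO minus WT (1.32%), 0 in transgenic minus LXR DKO and 3 in transgenic minus WT (3.95%). The shares over all genes were 10.6%, 0.116% and 11.9%. Beside a background of 0.116%, the 0 says nothing about these lists. Cdkn2b (ENSMUSG00000073802, chromosome 4, 89306299 to 89311039, minus strand), which encodes the Cdk4 and Cdk6 inhibitor p15, measured 91, 58 and 69.2 RPKM in the WT libraries, 42.6, 32.5 and 35.8 in the double knockout, and 35.9, 39 and 41.3 with the transgene. Every WT library lay above the other 6. It fell by 0.94 ± 0.16 on the log2 scale in LXR DKO (limma, adjusted p = 0.00974) and by 0.87 ± 0.16 in transgenic libraries against WT (adjusted p = 0.0142), and without WT 1 and LXR DKO 1 the values were -0.87 ± 0.12 (adjusted p = 0.0142) and -0.70 ± 0.11 (adjusted p = 0.0189). Leaving out transgenic 1 ended the call in transgenic minus WT (adjusted p = 0.0547). Ube2c, the ubiquitin-conjugating enzyme of the APC/C, measured 8.56, 5.52 and 6.03 RPKM in the WT libraries, 5.77, 3.31 and 3.59 in the double knockout, and 4.06, 3.13 and 3.13 with the transgene, and fell by 0.78 ± 0.20 in transgenic minus WT (adjusted p = 0.0421). Hmmr, a spindle-associated protein, fell by 0.56 ± 0.14 there (adjusted p = 0.0331), and by 0.46 ± 0.13 without WT 1 and LXR DKO 1, which did not pass (adjusted p = 0.0817). In that fit Ube2c still passed in transgenic minus WT, at -0.62 ± 0.13 (limma, adjusted p = 0.0396). In LXR DKO minus WT it was -0.61 ± 0.14 there and did not pass (adjusted p = 0.0528). Over all alternatives the adjusted p in transgenic minus WT reached 0.131 for Ube2c and 0.106 for Hmmr. Both calls were lost without the filter and on leaving out any 1 of WT 1, WT 2, LXR DKO 3 or transgenic 1, 2 or 3, that of Ube2c also without LXR DKO 2. The granulosa marker sums given with Ccnb2 differ in the same direction, and their part was not tested.

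Messages of meiotic regulators were also present in the transgenic libraries, at lower levels. Without WT 1 and LXR DKO 1, Btg4, which clears maternal messages, rose in transgenic minus WT by 2.31 ± 0.46 (limma, adjusted p = 0.0342) and Wee2, the oocyte kinase that restrains Cdk1, by 1.38 ± 0.21 (adjusted p = 0.0159). Btg4 measured 0.074 and 0.191 RPKM in WT 2 and WT 3 and 2.07, 8.44 and 5.1 RPKM in transgenic 1 to 3. These were 2 of the 5 tested meiotic regulators, where 7.6% of all genes were called, and 0 of 5 passed with all 9 libraries. Oocyte markers moved with them: 6 of 10 tested were called higher in the same comparison, among them H1foo by 3.58 ± 0.70 (adjusted p = 0.0331), Bcl2l10 by 3.39 ± 0.73 (adjusted p = 0.0421) and Gdf9 by 2.25 ± 0.46 (adjusted p = 0.0368). In the same comparison Ccnb1 and Bub1b, the members highest over the rest in WT 1 and LXR DKO 1, had values of 0.19 and 0.23, neither past the threshold. The filter counted WT 1 and LXR DKO 1, so a gene high in both was tested only if another library reached 1 RPKM. Of 20 oocyte markers, 7, 9 and 9 did so in transgenic 1 to 3 and 7 in LXR DKO 2. In WT 2, WT 3 and LXR DKO 3 it was 1 each. The shares called on the oocyte and meiotic lists thus depend on the filter and are a description only.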

How the data were processed

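The authors deposited 1 matrix of RPKM values with 1 column per library, assigned here by column name. The mm10 build, HISAT2 2.1.0 and HTSeq 0.5.4p5 appear in the submitters' processing notes beside DESeq2 1.2.8 and cutadapt, with no roles. Strand setting and library totals behind RPKM are not given in those sources. Values were tested as log2(RPKM + 1) in limma 3.58.1 under R 4.3.3, on genotype alone with a mean-variance trend, over all 9 libraries and the 16422 genes that reached an RPKM of 1 in 3 or more libraries. A log2 fold change on this scale understates changes of low genes. Read numbers were recovered from RPKM and GENCODE M21 exon lengths: 98.1% of genes above 0 gave whole reads to within 0.02 reads, among them 36 of the 39 tested members, with a median of 736 reads. Recovered reads entered limma-voom as an alternative; an RPKM of 0.0638 to 0.0965 in a gene of 1 kb is 3 reads. All 40 members are described. Of the other lists, genes past the threshold and the 3 with the highest ratio of WT 1 and LXR DKO 1 to the rest could be named. The members and lists were chosen with earlier results of these data known. The fit was tested on simulated data.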

Additional observations from a re-analysis of the deposited data

How the results depend on the processing

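The count of members called was 0 in each comparison under pseudocount 0.1, both other filters, quantile normalization, fits of only the genotypes compared, and voom. Without WT 1 and LXR DKO 1 it was 1 in LXR DKO minus WT, 0 in transgenic minus LXR DKO and, against WT, 1 in transgenic libraries, the order kept below. Leaving out 1 library each gave 0 to 2 (2 without LXR DKO 1), 0 and 0 to 3 (3 without WT 3, 2 without LXR DKO 1). The labels do not pair the libraries, and deviations of same-numbered libraries correlated at -0.293 to 0.672, the highest being WT 1 with LXR DKO 1; with a replicate block the counts were 0, 0 and 1 (Ccnb2, -0.91 in transgenic minus WT, adjusted p = 0.0354), and calls over all genes 1178, 8 and 1513. Of 289 fold changes under alternatives, 18 lost and 10 gained a call, and 0 called values turned sign. The causes were not tested. Members above the rest in both WT 1 and LXR DKO 1 numbered 6 at 2-fold, 15 at 1.5-fold (1.77% of all genes), 2 at 3-fold (0.712%) and 4 with 1 RPKM added (0.84%). Calls over all genes, 1739, 19 and 1949, ran from 609 to 2140, 6 to 150 and 650 to 3555 when 1 library was left out, were 1032, 15 and 1096 without a filter, and 807, 93 and 1399 when only the genotypes compared were fitted.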
